A study of Poecilia latipinna with 15 samples.

Results

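In the brains of 15 female sailfin mollies (Poecilia latipinna), 149 of the 21671 transcripts tested followed social affiliation the same way in both social contexts: 33 were higher in more affiliative females (the rising set) and 116 were lower in them (the falling set). Affiliation is the time, in s, that a female spent near the stimulus fish during a trial of 30 min. A transcript was a member if Spearman's rho of its CPM (estimated count as a share of the library's total, scaled to 1000000) with affiliation was 0.65 or more in both contexts, or -0.65 or less in both. A transcript was tested if its TPM (the same share per length of the transcript, a level that can be compared between transcripts) was above 2 in 3 or more females, which 21671 of 31813 transcripts met. Transcripts whose rho with the preference score was 0.6 or more in size in both contexts were left out, which removed 2 from the falling side and 0 from the rising side. The members were thus selected on measured values, the ranks of their CPM against affiliation, and their relation to affiliation is described here with no test.

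Poeciliid females seek the company of other females, in shoals, as well as that of males, and time spent next to other fish is a common measure of social affiliation that does not depend on which fish is chosen. Preference is a separate measure, the share of directed movements that goes to the favored fish of a pair. In RNA from a whole brain, a change in the number of cells of a type and a change in the RNA per cell cannot be told apart.

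The Mm group, or male-interaction context, held 8 females that were shown a pair of males through a barrier. The Ff group, or female-interaction context, held 7 females shown a pair of females in the same way. The fish of a pair were of unequal size in both contexts. All 15 were sexually experienced females from a pond that were kept alone for 2 weeks before the trial and sampled right after it. The study kept only females with high affiliation and used no control without company. Each library is 1 brain, so a difference between libraries is a difference between females. Estimated counts per library summed to between 3424641 and 9989142 in Mm (median 5774792) and between 5301116 and 10555933 in Ff (median 6001956), and no 2 libraries agreed within sampling noise. Affiliation ran from 1512 to 1795 s in Mm (median 1617.5 s) and from 1506 to 1763 s in Ff (median 1662 s). The files identify transcripts by Ensembl number and no table at hand pairs these with genes, so gene names, gene functions and the markers of brain cell types were not analysed here, and only 2 transcripts of each set are printed by number.

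The members were a small part of the transcripts that followed affiliation in a single context. In Mm, 607 transcripts (2.8%) had a rho of 0.65 or more and 1005 (4.64%) a rho of -0.65 or less. In Ff the counts were 811 (3.74%) and 2015 (9.3%). Both limits were met in the same direction by 151 transcripts (0.697%), 33 upward (0.152%) and 118 downward (0.545%). Opposite directions were met by 66 (0.305%), of which 39 were high in affiliative Mm females and low in affiliative Ff females and 27 the reverse. The shares in the single contexts alone give some transcripts that meet both limits. How many was not worked out, so no excess of members is claimed. The weakest members had a rho of 0.667 in size in the weaker context, 8 of them rising and 19 falling, and the nearest transcripts outside the limit had 0.643, 17 on the rising side and 33 on the falling side. In the rising set the median rho was 0.738 in Mm and 0.75 in Ff, and in the falling set it was -0.722 in Mm and -0.768 in Ff. With TMM factors (an edgeR scaling of library totals) applied to the CPM, the rule gave 45 rising and 86 falling members, and with TPM in place of CPM it gave 20 and 161, so the split between the sets depended on the scaling.

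**Figure D1:**
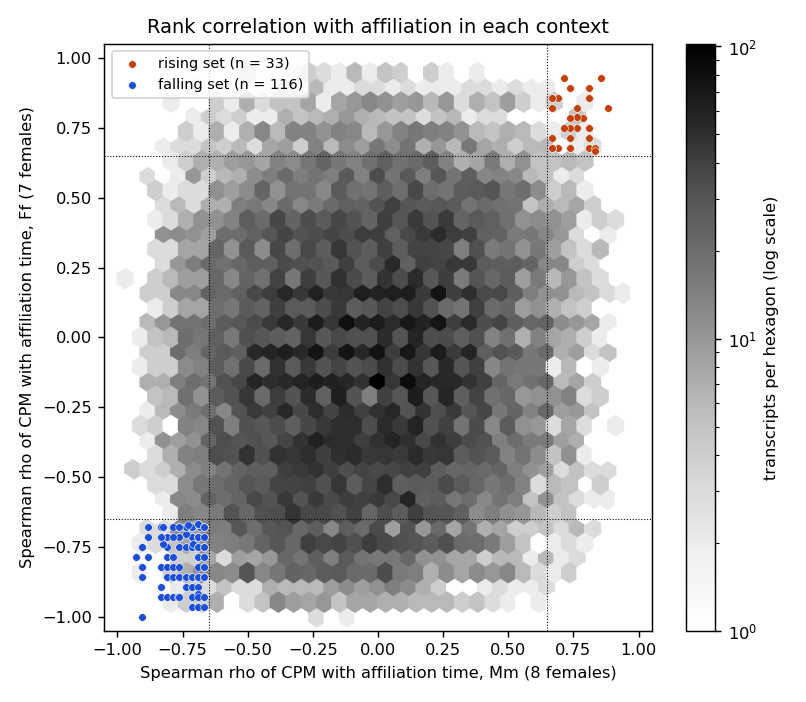
Spearman's rho of CPM with affiliation time in the 8 Mm females (x axis) and in the 7 Ff females (y axis) for the transcripts tested, shaded by the number of transcripts per hexagon on a log scale. Dotted lines mark rho of 0.65 in size; the 33 rising members lie in the upper right corner and the 116 falling members in the lower left.

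The 2 transcripts that led the rising set, by the smaller rho of the contexts and a mean TPM of at least 5, were ENSPLAT00000028358.1 and ENSPLAT00000012821.1. ENSPLAT00000028358.1, of 2288 bases and a mean of 8.21 TPM, had 10.2, 12.9 and 18.6 CPM in Mm (lowest, median and highest female) and 7.46, 13.6 and 21.4 CPM in Ff. The lowest female in each context, female 6 in Mm and female 17 in Ff, was also the least affiliative one. The highest was the most affiliative female in Ff (female 19) and the second most affiliative in Mm (female 5), while the most affiliative Mm female, female 12, had 14.2 CPM. Its rho with affiliation was 0.857 in Mm and 0.929 in Ff. The fitted slope was 0.15 log2 units per 100 s (SE 0.10) in Mm, or 1.11-fold, and 0.57 (SE 0.12) in Ff, or 1.48-fold. Without female 12 the Mm slope was 0.34. The slopes differed by -0.41 (SE 0.15, limma adjusted p = 0.802), a difference that does not pass the test over all transcripts.

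ENSPLAT00000012821.1, of 5609 bases and a mean of 6.42 TPM, was nearly off in some females and well expressed in others. In Mm it had 0.00049, 9.10 and 81.9 CPM (lowest, median and highest female), and in Ff 1.85, 24.4 and 91.9 CPM. Estimated counts ran from 0.00211 to 485 in Mm, so its lowest values rest on less than 1 read. The least affiliative females, 6 in Mm and 17 in Ff, were again the lowest, and 19, the most affiliative Ff female, was the highest there. In Mm a single female, 13, stood at 81.9 CPM and the next at 20.9 CPM. Its rho was 0.881 in Mm and 0.821 in Ff. The slope in Mm depended on the tool, at 0.91 log2 units per 100 s (SE 0.73) in limma, 2.51 in edgeR and 2.90 in DESeq2, and on single females, at 4.59 in limma without female 12 and 1.46 without female 13. In Ff it was 2.01 (SE 0.62) in limma.

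The leaders of the falling set by the same order were ENSPLAT00000013679.1 and ENSPLAT00000018126.1. ENSPLAT00000013679.1, of 3685 bases and a mean of 11.7 TPM, had 4.97, 39.4 and 63.2 CPM in Mm (lowest, median and highest female) and 10.6, 27.3 and 45.4 CPM in Ff. The most affiliative female of each context, 12 in Mm and 19 in Ff, had the lowest value. Females 3 and 6, the least affiliative of Mm, were the highest there at 63.2 and 62.3 CPM, and 17, the least affiliative of Ff, was the highest in Ff. Its rho was -0.905 in Mm and -0.857 in Ff, and its slope was -0.97 log2 units per 100 s (SE 0.18) in Mm and -0.57 (SE 0.18) in Ff. ENSPLAT00000018126.1, of 5422 bases and a mean of 14.2 TPM, varied far less: it had 46.7, 55.8 and 70.0 CPM in Mm and 42.3, 66.2 and 76.7 CPM in Ff. The lowest females were again 12 in Mm and 19 in Ff. Its rho was -0.833 in Mm and -0.929 in Ff, with slopes of -0.15 (SE 0.08) in Mm and -0.23 (SE 0.08) in Ff. The Ff slope was -0.37 without female 17. With all females a strong order went with a change of only 0.903-fold in Mm and 0.852-fold in Ff per 100 s.

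**Figure D2:**
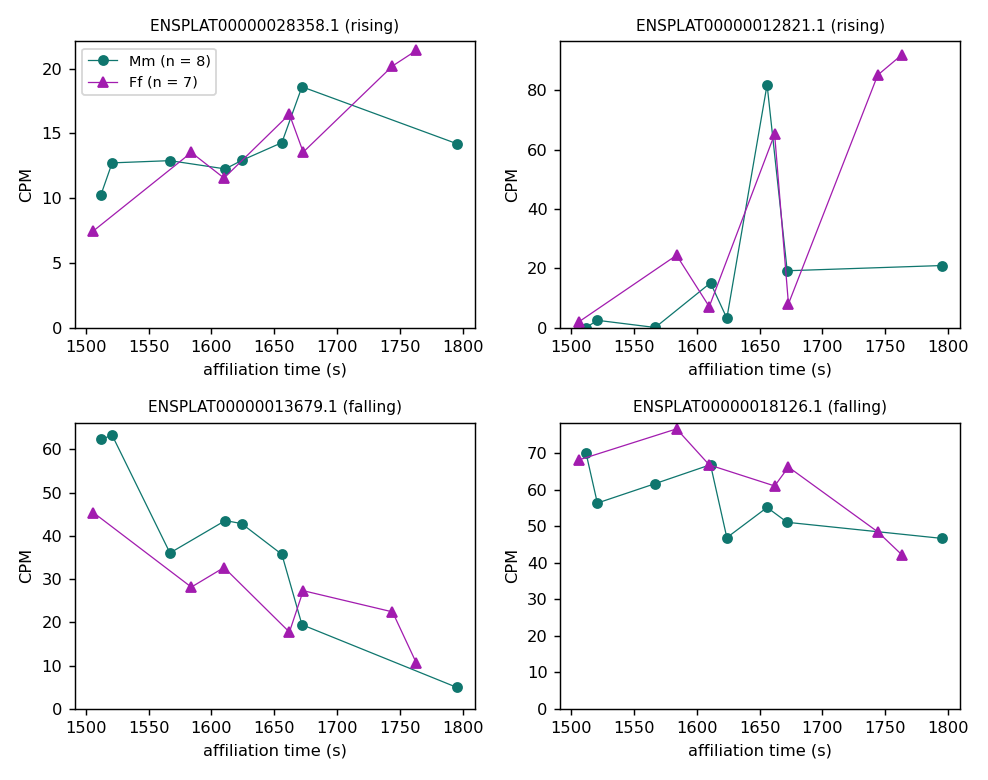
CPM (y axis, from 0) of the 4 named transcripts in each female against affiliation time in s (x axis); circles are the 8 Mm females, triangles the 7 Ff females, and lines join females in order of affiliation. In ENSPLAT00000013679.1 the values of the most affiliative females, 4.97 CPM in Mm and 10.6 CPM in Ff, are the lowest of their contexts, and in ENSPLAT00000012821.1 the jump of female 13 to 81.9 CPM is seen in Mm.

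One falling member, of 4938 bases and a mean of 4.25 TPM, ordered the 7 Ff females without exception (rho of -1) and had a rho of -0.905 in Mm. It had 8.10, 14.9 and 20.4 CPM in Mm (lowest, median and highest female) and 6.79, 16.3 and 26.2 CPM in Ff. Its fitted slope was -0.35 log2 units per 100 s in Mm and -0.57 in Ff.

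The sets spanned a wide range of abundance. Mean TPM ran from 0.968 to 5291 in the rising set (median 16.4) and from 0.803 to 2318 in the falling set (median 9.00), against a median of 10.9 over all tested. Transcripts of more than 100 TPM made up 7 of 33 rising members (21.2%) and 6 of 116 falling members (5.17%), beside 6.16% of all tested. The most abundant rising member, of 1386 bases, had 4296, 5253 and 7135 TPM in Mm (lowest, median and highest female) and 3961, 5193 and 5944 TPM in Ff, with a rho of 0.667 in Mm and 0.679 in Ff. The next rising members, of 1261 and 1287 bases, averaged 1289 and 1088 TPM. So the rising set included some of the plentiful transcripts of the brain, whose values differed between females by less than 1 log2 unit. The most abundant falling members were unlike each other in length, a short one of 135 bases with a mean of 2318 TPM, then one of 8519 bases with 317 TPM, then one of 369 bases with 268 TPM. The long one had 192, 302 and 467 TPM in Mm and 170, 314 and 515 TPM in Ff, with its highest Ff value in the least affiliative female (17) and its lowest in the most affiliative (19).

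Summed over the set, the rising members had 7091, 8450 and 11774 CPM in Mm (lowest, median and highest female) and 6330, 8155 and 10374 CPM in Ff. The falling members summed to 4664, 6274 and 8063 CPM in Mm and to 4337, 6442 and 8489 CPM in Ff. Much of the rising sum came from the most abundant rising member, with a mean of 5374 CPM, and part of the falling sum from the falling member of 8519 bases, with 2079 CPM. The ranges of the contexts overlapped, though females 10 and 13 of Mm, at 11179 and 11774 CPM, had rising sums above those of all Ff females. The median log2 deviation of the falling members from their own context mean shows the order with equal weight per transcript. In Mm it was 0.38 in female 6 and 0.24 in female 3, the least affiliative, and -0.29 in female 12 and -0.27 in female 13. In Ff it was 0.40 in female 17, the least affiliative, and -0.37 in female 9 and -0.44 in female 19, the most affiliative. The rising members mirrored this, at -0.31 in female 6 and 0.30 in female 13 of Mm, and at -0.31 in female 17 and 0.39 in female 19 of Ff.

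**Figure D3:**
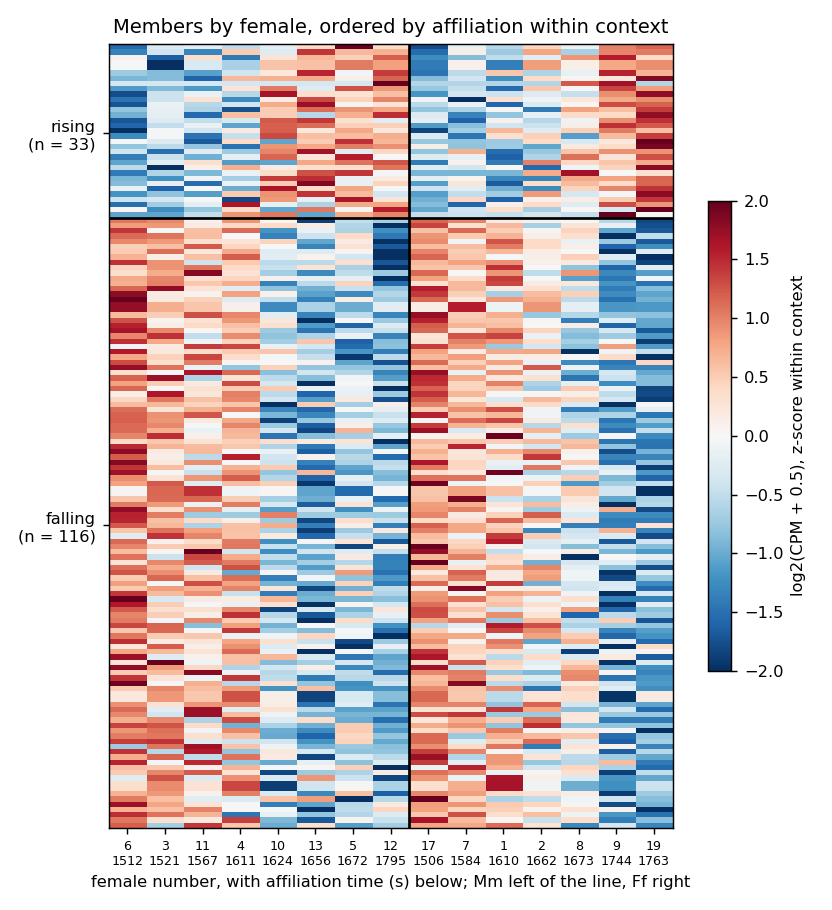
Each row is 1 member and each column 1 female, ordered within Mm (left) and Ff (right) by affiliation time, which is printed in s under the female's number; color is the z-score of log2(CPM + 0.5) within the context, red high and blue low. The 33 rising members (top) turn from blue to red with affiliation and the 116 falling members (bottom) from red to blue, as the rule requires, and female 6 of Mm and females 17, 9 and 19 of Ff have the median z-scores farthest from 0 in the falling set.

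The females that held the extreme places were counted. The rule chose the members by the order of these same females, so the counts describe that order and are no sign of separation. They were not taken over all tested. In Mm, the most affiliative females, 12 and 5, held both extreme places in 7 of 33 rising and 21 of 116 falling members, and female 6 was among the 2 at the other end in 24 rising and 81 falling members. In Ff, the most affiliative females, 19 and 9, held both extreme places in 19 rising and 68 falling members, and female 17 was among the 2 at the other end in 24 and 86. Female 6 in Mm and female 17 in Ff, the least affiliative of their contexts, thus took a like place in both sets. The 3 most affiliative females did not overlap with the 3 least affiliative in 27 rising and 83 falling members in Mm, and in 20 rising and 74 falling members in Ff.

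Membership depended on single females. When each was left out in turn with the limit kept, between 82 (without female 6) and 145 (without female 1) of the 149 members met the rule, and 7 rising and 16 falling members met it in all 15 leave-outs. The count of transcripts that met it grew without most females. It was 78 rising and 203 falling without female 17, 62 and 207 without female 5, and 62 and 179 without female 12. It was 48 and 175 without female 11, 66 and 158 without female 7, 51 and 156 without female 1, and 50 and 155 without female 2. The rising count did not grow only without female 4 (33), and the falling count only without females 6 (98) and 19 (103). A fixed limit on rho is easier to reach with fewer females, so nothing is read from the growth. ENSPLAT00000028358.1 was a member in all 15.

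Members differed in how far they moved. The span from the lowest to the highest female, on the log2(CPM + 0.5) scale, had a median of 1.13 in Mm and 1.02 in Ff in the rising set and of 1.16 in Mm and 1.21 in Ff in the falling set, close to the 1.20 in Mm and 1.14 in Ff of all tested. The spread of the members was thus much like that of all tested, while the order of the females is what the rule chose them by. Some were near 0 in several females. At exactly 0 in 1 or more females were 3 rising (9.09%) and 18 falling members (15.5%), beside 19.3% of all tested. A mean estimated count under 10 was found in 2 rising (6.06%) and 13 falling members (11.2%), beside 9.72% of all tested. A rising member of 1179 bases was at 0 in 6 of 8 Mm and 4 of 7 Ff females and reached 3.99 CPM in Mm and 5.31 CPM in Ff. A falling member of 5092 bases reached 23.2 CPM in Mm and 12.4 CPM in Ff with medians of 2.28 CPM in Mm and 1.3e-05 CPM in Ff. It had the steepest slope of the set in Mm, -3.99 log2 units per 100 s.

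Fitted slopes are given for all members side by side. All 33 rising slopes were positive and all 116 falling slopes negative in both contexts, as the rule makes likely. The median slope of the rising set was 0.25 log2 units per 100 s in Mm and 0.36 in Ff, and that of the falling set -0.29 in Mm and -0.31 in Ff. At an unadjusted p below 0.05 in limma, 55 members had a slope in Mm (11 rising and 44 falling), beside 5.0% of all tested (2.72% upward and 2.28% downward), and 62 had one in Ff (14 rising and 48 falling), beside 7.29% of all tested (2.99% upward and 4.31% downward). Only 5 rising and 18 falling members were called in both contexts. The rule used ranks of the same values in the same females, so nothing is read from the counts. At a limma adjusted p below 0.05 no member was called in either context, beside 0.00461% of all tested in Mm and 0.0% in Ff. In edgeR 50 members in Mm (beside 3.85% of all tested) and 61 in Ff (beside 6.99%) had an unadjusted p below 0.05 and 0 an adjusted one. In DESeq2 the counts were 59 (beside 6.14%) and 71 (beside 9.4%) unadjusted and 3 (beside 0.106%) and 8 (beside 0.452%) adjusted. Without female 3 the Mm count was 30 and without female 6 it was 31. Without female 19 the Ff count was 37. Shares over all tested were not taken without these females, so nothing is read from these changes.

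**Figure D4:**
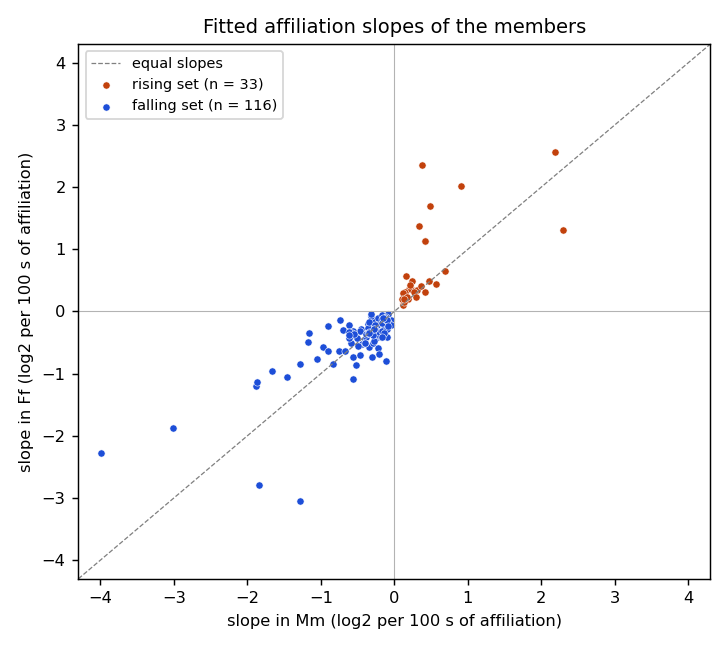
Slope of each member in Mm (x axis) against its slope in Ff (y axis), both in log2 units per 100 s of affiliation from limma; the dashed line marks equal slopes. The rising members lie in the upper right, 27 of 33 with the larger slope in Ff. The falling members lie in the lower left, 58 of 116 with the larger slope in Ff. These shares were not taken over all tested.

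The size of the slopes was compared between contexts. Of the rising members 27 of 33, and of the falling members 58 of 116, had the larger slope in Ff in limma. In edgeR and in DESeq2 it was 23 of 33 and 65 of 116. The share with the larger slope in Ff was not taken over all tested. The lower and upper quartiles of the limma slopes over all tested were -0.14 and 0.13 in Mm and -0.16 and 0.15 in Ff. Nothing is read from these counts. The slope difference (Mm minus Ff) had an unadjusted p below 0.05 in 3 members (2.01%), beside 6.09% of all tested, and 0 passed at a limma adjusted p below 0.05, with 3 members at an unadjusted p below 0.05 and 0 adjusted in edgeR (beside 5.39% of all tested unadjusted) and 7 and 0 in DESeq2 (beside 7.78% unadjusted and 0.129% adjusted). These 3 were ENSPLAT00000028358.1, a rising member of 3172 bases and a falling member of 9402 bases, all with the larger slope in Ff. The falling one had 18.2, 24.7 and 30.4 CPM in Mm and 10.6, 23.8 and 58.0 CPM in Ff, so its Ff females covered the wider range. The count was 6 without female 3, and 5 without female 2 or without female 8. The rule required the same direction in both contexts, which makes a share of slope differences below the background likely. Nothing is read from that share.

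The rule ranked females within a context, so the level in Mm against Ff was not used by it. At an unadjusted p below 0.05 in limma, 5 members (3.36%) differed between contexts, beside 2.69% of all tested, a share near the background. None passed at an adjusted p below 0.05 (smallest limma adjusted p = 0.999988), and edgeR and DESeq2 had 3 members (beside 2.1% of all tested) and 4 members (beside 2.17%) at an unadjusted p below 0.05 and 0 adjusted, beside 0.0% of all tested in edgeR and 0.00461% in DESeq2. The median difference, Mm minus Ff, was 0.07 log2 units in the rising set and -0.06 in the falling set, beside -0.01 over all tested. Both medians were far smaller than the span between females of 1 context given above.

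Each of these 5 is given by its length, since no call passed adjustment. The rising member of 3172 bases had 17.3, 32.6 and 49.1 CPM in Mm (lowest, median and highest female) and 3.4e-09, 14.0 and 39.4 CPM in Ff, an estimate of 2.09 log2 units (SE 0.87) with 1 Ff female at almost no counts. The falling member of 486 bases had 0.912, 1.93 and 3.21 CPM in Mm and 0, 0.780 and 1.63 CPM in Ff, with 2 Ff females at 0. The falling members of 966, 3102 and 4150 bases had negative estimates (Mm minus Ff), of -1.37 (SE 0.58), -0.24 (SE 0.10) and -0.27 (SE 0.11) in that order. In all 5 the ranges of Mm and Ff overlapped. The count of 5 was 9 without female 8, 8 without female 3 or without female 19, and 3 without female 5 or without female 10. Of the named transcripts, ENSPLAT00000028358.1 differed by -0.04 (SE 0.21), ENSPLAT00000012821.1 by -2.27 (SE 1.41), ENSPLAT00000013679.1 by 0.35 (SE 0.46) and ENSPLAT00000018126.1 by -0.14 (SE 0.12), each within about 2 SE of 0. Without female 12 the difference of ENSPLAT00000013679.1 was 0.71 and without female 3 it was 0.16, and without female 17 that of ENSPLAT00000012821.1 was -2.84. The estimates of 0.71 and -2.84 each had an unadjusted limma p below 0.05.

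The numbers in the females' titles split the libraries, with females 9 to 19 on one side and females 1 to 8 on the other, in a way whose origin is not stated. The split was taken up with earlier results of these data known. Affiliation averaged 1660.5 ± 96.9 s in females 9 to 19 and 1579 ± 76.4 s in females 1 to 8 of Mm (SD, n = 4 each). In Ff it averaged 1671 ± 143 s in females 9 to 19 (SD, n = 3) and 1632 ± 42.3 s in females 1 to 8 (SD, n = 4). The groups of females overlapped in affiliation in both contexts, yet females 9 to 19 were the more affiliative on average.

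With context in the model, 31 members (20.8%) differed between females 9 to 19 and females 1 to 8 at an unadjusted p below 0.05 in limma, beside 23.0% of all tested. This unadjusted limma share was near the background. All 9 rising members called were higher in females 9 to 19, and all 22 falling members called were lower in them, beside 11.3% of all tested higher and 11.7% lower. Because the members were chosen by affiliation and these females were the more affiliative on average, the rule makes these directions likely and nothing is read from them. Estimates were positive in 32 of 33 rising members and negative in 101 of 116 falling members, with medians of 0.38 and -0.30 log2 units, beside -0.05 over all tested. In edgeR 23 members (15.4%) were called, beside 21.1% of all tested, and in DESeq2 27 (18.1%), beside 22.2%. At a limma adjusted p below 0.05, 2 of 149 members were called, beside 7.33% of all tested. Adjusted, 2 were called in edgeR (beside 6.46%) and 5 in DESeq2 (beside 10.0%). The adjusted shares of the members were thus below those of all tested, and why was not tested. Of the 2 called in limma, one was the most abundant rising member, which had 4883, 5878 and 7651 CPM in females 9 to 19 (lowest, median and highest) and 3947, 4552 and 5818 CPM in females 1 to 8, a difference of 0.45 log2 units (SE 0.12, limma adjusted p = 0.0353). The other was a falling member of 1083 bases, which had 3.40, 6.58 and 9.04 CPM in females 9 to 19 and 6.35, 10.4 and 16.1 CPM in females 1 to 8, a difference of -0.66 (SE 0.19, limma adjusted p = 0.0453). In both, the ranges overlapped. The count of 31 was 58 without female 17, 19 without female 3 and 19 without female 9.

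The direction of the members was also counted within each number group, of 3 or 4 females. The relation of log2 CPM to affiliation was positive in 30 of 33 rising members among Mm females 9 to 19 and in 33 among Mm females 1 to 8, and in 33 among Ff females 9 to 19 and 29 among Ff females 1 to 8. It was negative in 111 and 115 of 116 falling members in these Mm groups and in 116 and 99 in these Ff groups. The direction of the set was seen in all 4 groups by 26 rising and 94 falling members. The rule used the same females and values, so these directions are largely built in and nothing is read from them. Over all tested the median Pearson r of log2 CPM with affiliation was 0.00837 in Mm females 9 to 19 and -0.0315 in Mm females 1 to 8. In Ff it was -0.223 in females 9 to 19 and -0.0282 in females 1 to 8. With the number group as a further term, 30 members had an Mm slope at an unadjusted p below 0.05, beside 3.83% of all tested, and 64 an Ff slope, beside 8.08%.

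Standard length, the body length of the female, was not used by the rule. None of the 149 members had a slope with it at an unadjusted p below 0.05 in limma, beside 15.6% of all tested, and the counts were 1 in edgeR (beside 12.6%) and 2 in DESeq2 (beside 14.0%), with 0 adjusted in each tool, beside 0.0%, 0.00923% and 1.52% of all tested in limma, edgeR and DESeq2. The limma count changed to 14 without female 17, to 4 without female 19 and to 11 with the number group as a term. Shares over all tested were not taken in these settings, so nothing is read from these changes. The median slope was -0.05 log2 units per 10 mm in the rising set and 0.05 in the falling set, beside 0.02 over all tested. Affiliation itself had a Spearman rho with standard length of -0.262 in Mm and 0.214 in Ff. Members follow affiliation the same way in both contexts, so relations to standard length of opposite sign are likely from the rule. Such relations can cancel in 1 slope shared by the contexts, so nothing is read from the low count.

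Preference was used by the rule only to leave transcripts out. The Spearman correlation with preference was below 0 in 24 of 33 rising members in each context, with medians of -0.218 in Mm and -0.179 in Ff. Over all tested it was below 0 in 43.1% in Mm and 43.2% in Ff, with a median of 0.0714 in each. In the falling set it was below 0 in 16 of 116 members in Mm and 32 in Ff, with medians of 0.381 and 0.107. It was 0.6 or more in 22 falling members in Mm (19.0%), beside 12.5% of all tested, and in 7 in Ff (6.03%), beside 14.9% of all tested. The falling set thus lay above all tested in Mm, while in Ff its median was close to that of all tested. Affiliation itself had a Spearman rho with preference of -0.262 in Mm and -0.143 in Ff. Choosing by affiliation therefore makes values below 0 likely in the rising set and above 0 in the falling set, so nothing is read from these shifts. The difference between contexts was not tested. At an unadjusted p below 0.05 in limma, 5 members (3.36%) had a preference slope in Mm, beside 11.9% of all tested, and 5 (3.36%) in Ff, beside 6.39%, with 0 adjusted in both. The exclusion at 0.6 in both contexts left out only 2 falling and 0 rising transcripts, so it can change these shares little. Why the shares were below those of all tested was not tested.

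Long transcripts were frequent in the falling set and rare in the rising set. Median length was 1401 bases in the rising set (309 to 5609), 2184.5 bases in the falling set (135 to 9402) and 1782 bases over all tested. Transcripts of 4000 bases or more made up 33 of 116 falling members (28.4%) and 1 of 33 rising members (3.03%), beside 15.5% of all tested. The falling set took 0.980% of the tested transcripts of 4000 bases or more, 0.436% of those of 2000 to under 4000 bases, 0.367% of those of 1000 to under 2000 bases and 0.570% of those under 1000 bases. Its members were thus most frequent among the longest transcripts. The share under 1000 bases was near the 0.535% that the falling set took of all tested. Transcripts under 1000 bases made up 27.6% of the falling members, beside 25.9% of all tested. Over all tested transcripts of 4000 bases or more the median rho with affiliation was -0.119 in Mm and -0.321 in Ff, so long transcripts as a class leaned the same way as the falling set in Ff.

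The mean length of the transcripts in a library, weighted by their counts, was set against affiliation. It was 2574, 2774 and 2893 bases in Mm (lowest, median and highest female) and 2596, 2755 and 2882 bases in Ff. Its relation to affiliation in Mm had a Pearson r of -0.282 (p = 0.496 by an exact permutation test, 0.835 after adjustment over 24 values) and a Spearman rho of -0.333 (p = 0.428, exact, and 0.835 adjusted). The Mm value of r became 0.0819 without the 2 females farthest from the median of this length. In Ff, Pearson's r reached -0.883 (p = 0.0109 by an exact permutation test, 0.148 adjusted), Spearman's rho reached -0.893 (p = 0.0123, exact, and 0.148 adjusted), and r without the 2 farthest females was -0.727. The Ff relation does not pass the adjustment. For the library total in Ff, r was -0.135 (p = 0.767 by an exact permutation test, 0.894 adjusted) and became -0.968 without the 2 females farthest from the median of that total, so this relation changed with those 2 females. Spearman's rho of affiliation with that total in Ff was -0.607 (p = 0.167, exact, and 0.835 adjusted). With the number of transcripts detected it was -0.536 in Ff (p = 0.236, exact, and 0.835 adjusted).

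The members were also set against this library measure, whose rho with affiliation itself was -0.333 in Mm and -0.893 in Ff. In Mm, rho with it was below 0 in 28 of 33 rising members (median -0.381) and above 0 in 107 of 116 falling members (median 0.476), beside a median of 0.0952 over all tested. In Ff it was below 0 in all 33 rising members (median -0.786) and above 0 in all 116 falling members (median 0.714), beside 0.0714 over all tested. The rule thus fixes the signs with the mean length in Ff and makes those in Mm likely, so nothing is read from them. In Ff affiliation also had a negative rho with the library total and the number of transcripts detected. That makes the signs of the members with both likely there too. The rho of the members with the total was below 0 in all 33 rising members (median -0.536) and above 0 in 114 of 116 falling members (median 0.5), beside a median of 0.126 over all tested. With the number detected it was below 0 in 32 rising members (median -0.429) and above 0 in 114 falling members (median 0.464), beside 0.107 over all tested. In Mm the medians with the library total had the other sign, at 0.238 in the rising set and -0.190 in the falling set, and with the number detected they were -0.0779 and 0.143. With the library total as a further term, 52 members had an Mm slope with affiliation at an unadjusted p below 0.05, beside 4.85% of all tested, and 64 an Ff slope, beside 6.97%. Of the 32 falling members under 1000 bases, 30 had a rho with the mean length above 0 in Mm and 32 in Ff (median 0.714). These signs too were likely from the rule in Mm and fixed by it in Ff. With the mean length as a further term, 32 members had an Mm slope with affiliation at an unadjusted p below 0.05, beside 4.12% of all tested, and 29 an Ff slope, beside 7.94%, and the sign of the set was kept by all 149 in Mm and by 29 of 33 rising and 106 of 116 falling members in Ff. When rho was replaced by a partial rank correlation given the mean length, 59 rising and 126 falling transcripts met the limit, of which 6 and 30 were members.

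**Figure D5:**
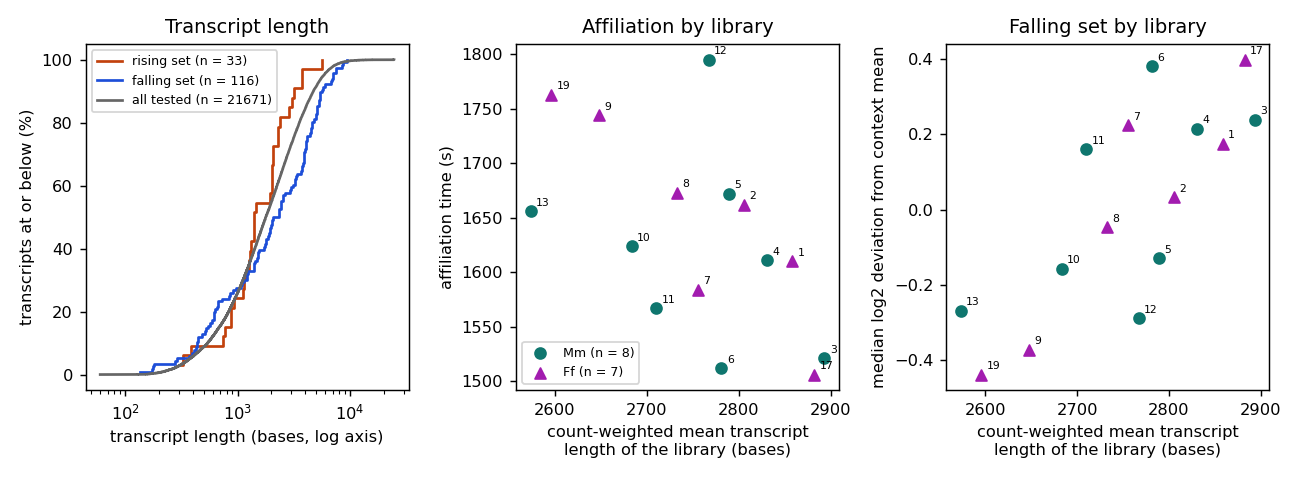
Left, cumulative share (%) of transcripts by length in bases on a log axis for the rising set, the falling set and all tested. Middle and right, the count-weighted mean transcript length of each library in bases (x axis) against the female's affiliation time in s and against the median log2 deviation of the falling set from its context mean; circles are Mm, triangles Ff, labelled by female number. In Ff the most affiliative females, 19 and 9, have the shortest mean length and the lowest falling set (-0.44 and -0.37), and female 17 the longest and the highest (0.40).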

How the data were processed

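Whole-brain RNA-seq of 15 females (8 Mm, 7 Ff) was used. Trimmed single-end reads were quantified by the authors with kallisto 0.43.0 on the Ensembl cDNA of the species. The authors deposited an estimated count per transcript, often not a whole number, and beside it TPM, which divides that count by effective length and scales each library to the same total. No other scaling between libraries had been applied. Affiliation, preference and standard length came from the study's table of behavioral scores.

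A TPM above 2 in at least 3 females was required (21671 transcripts kept, 10142 dropped). The members and the tests were chosen with earlier results of these data known. Estimated counts were rounded for the count models. The main test was voom and limma 3.58.1 with TMM factors, with the study's models for context and for affiliation or preference within context, plus female number group or standard length beside context, and Benjamini-Hochberg adjustment over all 21671. The study calls genes on unadjusted p-values with an empirical rate, so both unadjusted and adjusted counts are given. Alternatives were edgeR 4.0.16, DESeq2 1.42.0, no TMM factors, another filter, log2(TPM + 1), log2(TPM + 0.1), further terms and each female left out; the mean transcript length was added after seeing the data. R 4.3.3 and Python 3.11.15 with SciPy 1.17.1 were used, and the fits were checked on simulated counts. The named transcripts are the 2 of each set with a mean TPM of at least 5 whose smaller rho was largest in size, and others, given by length, were chosen after their values were seen. Transcripts with the same sequence share reads, and 10 members form 5 pairs with equal estimated counts and length, which leaves 32 distinct patterns in the rising set and 112 in the falling set.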

Additional observations from a re-analysis of the deposited data

Results flagged for a closer look

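ENSPLAT00000012821.1, a member of the rising set, had 1 value that stood apart from the rest of its group. Female 13 of Mm had 81.9 CPM, the next highest Mm female 20.9 CPM, and the gap made up 0.745 of the whole Mm range. In all, 12 groups of values were looked at this way, and chance alone sets about 1 in 20 apart. Female 13 ranked in the upper part of Mm for affiliation, at 1656 s, and rho uses only the order of the values.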

How the results depend on the processing

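The count of members was 20 rising with TPM, 20 rising with Pearson's r of log2 CPM, 59 rising with the partial rank correlation given mean transcript length, and 66, 18 and 11 rising and 212, 58 and 28 falling at limits on rho of 0.6, 0.7 and 0.75. Over the females left out it ran from 33 to 78 rising and from 98 to 207 falling. The count of 55 members with an Mm slope, beside 5.0% of all tested, changed with further terms. It was 30 with the number group (beside 3.83%) and 33 with standard length (beside 4.01%). With preference it was 33 (beside 3.42%) and with mean transcript length 32 (beside 4.12%). Over the females left out it ran from 30 to 54. The Ff count of 62 (beside 7.29%) was 29 with mean transcript length (beside 7.94%) and ran from 37 to 65. For these slopes, shares over all tested were not taken with females left out, so nothing is read from the ranges. The slope difference count of 3 was 7 in DESeq2, 6 with log2(TPM + 1) and 9 with log2(TPM + 0.1), and ran from 2 to 6. The context count of 5 was 3 in edgeR, 3 with log2(TPM + 1), 1 with log2(TPM + 0.1) and 8 with mean transcript length, and ran from 3 to 9. The number group count of 31 was 2 with mean transcript length, where the share over all tested was not taken, and ran from 19 to 58. The standard length count of 0 was 1 in edgeR, 2 in DESeq2, 1 with every transcript counted above 0 in 3 or more females and 11 with the number group, and ran from 0 to 14. The context difference of ENSPLAT00000028358.1 ran from -0.19 to 0.055 over the females left out, and was above 0 without females 19 (0.055), 9 (0.04) and 6 (0.0052). The causes were not tested. For slope difference, context, number group and standard length, shares over all tested were taken only in the main limma fits, edgeR and DESeq2. Nothing is read from changes of these counts in other settings. The remaining 51 alternative counts were within 1.5 times the value given. A like count can hold other transcripts. With Pearson's r of log2 CPM, 116 transcripts fell, of which 50 were members, and 8 of the 20 rising were members. With TPM, 89 of the 161 falling and 18 of the 20 rising were members. No paired analysis was possible because no female number occurs in both contexts. Groups of 7 and 8 females and libraries of 3424641 to 10555933 counts limit what slopes of transcripts under 10 counts can show.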

Other observations

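Members of a set were still correlated after a linear term for affiliation was removed. After affiliation within context was removed by regression, the mean pairwise correlation of log2 CPM over the 15 females was 0.137 within the rising set (32 distinct patterns), 0.129 within the falling set (112) and -0.126 between the sets, beside 0.00860 over all tested. With the number group removed too it was 0.135, 0.0911 and -0.106, beside 0.00129 over all tested. All pairs share the same 15 libraries and the members were chosen by order, so these are descriptions with no test. A shared part of affiliation that is not linear stays in these values, and library measures such as the mean length were not removed. Covariation beyond affiliation is therefore not shown.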
